A study of Mus musculus with 374 samples.

Results

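Assays 84, 14 and 15 are 3 of the 81 numbered TaqMan assays with which single cells of the embryonic mouse heart were profiled by quantitative PCR. They were chosen because each was detected more often in the cells of the last 96 column numbers of the deposited table than in the other cells. The cells came from Nkx2-5Cre/+;ROSA26mTmG/+ embryos at embryonic day 10.5. Nkx2-5Cre/+ places Cre recombinase at 1 copy of the gene for an early cardiac transcription factor, and ROSA26mTmG/+ is a reporter that switches to membrane green fluorescent protein (GFP) once Cre has acted. All 374 cells were GFP-positive, no cells without Cre are among those analysed here, and the labels divide them over 9 dissected zones (both atria, both ventricles, both sides of the septum, the atrioventricular canal, and the proximal and distal outflow tract), with between 36 and 47 cells in each.

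The embryonic heart at this stage is a looped tube in which chambers are forming. Atria and ventricles grow out as working muscle, whereas the atrioventricular canal and the outflow tract conduct slowly and carry the cushions from which valves and septa arise. Much of the right ventricle and outflow tract is added from progenitor cells of the second heart field. Cells of the Nkx2-5 lineage include heart muscle cells and part of the endocardium, the inner lining. An assay can therefore differ between cells because of cell type, because of position, or both.

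The table numbers its assays and its cells. It does not pair assay numbers with genes, and none of the 3 assays is given a gene name here. Of its 374 column names, 0 equalled a sample title, so no cell was given to a zone and no value by zone is reported. Column order was not used as a key. The column numbers were read instead as 4 runs of 96, since 1 array takes 96 inputs, without any label stating that a run is an array. Run 4 is the last of them, on which the choice rested. Which zones each run holds is not stated in the table, so a difference between runs and a difference between zones cannot be told apart.

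An assay counted as detected when its product crossed the instrument's threshold by PCR cycle 28. This cycle (Ct) is lower where there was more template. Cells with at least 10 detected assays were kept, 334 of 374. They had a median of 39.5 assays detected, and the median per run was 40, 41, 31 and 39.5 in runs 1 to 4. The labels name no animal, so all cells form 1 sample. No test between groups was made, and the 95% intervals are exact binomial (Clopper-Pearson) for shares and cover counting error only. A count of 0 is given with the share that 3 counts would make, which lies below the upper end of the exact interval.

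The 3 assays lay in the middle and lower part of the panel. Assay 84 was detected in 159 of 334 kept cells (47.6%, interval 42.1 to 53.1%), assay 14 in 134 (40.1%, interval 34.8 to 45.6%) and assay 15 in 83 (24.9%, interval 20.3 to 29.8%). By this share they ranked 33, 42 and 59 among the 81 assays. No detected Ct lay close under the limit for assay 14, whose latest was 25.8 and whose next value outside was 31.7. The corresponding values were 27.7 and 29.2 for assay 84, and 27.7 and 28.5 for assay 15.

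The shares by run, which the choice of the assays used, are given as a description. In run 1, 48 of 84 cells had assay 84 (57.1%), and in run 2, 34 of 79 had it (43.04%). In run 3 the count was 16 of 81 (19.8%), and in run 4 it was 61 of 90 (67.8%, interval 57.1 to 77.2%). Its share was lowest in run 3 and highest in run 4, and the intervals of runs 1 and 4 overlapped. The share of assay 14 was 36.9%, 37.97% and 23.5% in runs 1 to 3, and in run 4 it was 60% (54 of 90, interval 49.1 to 70.2%). For assay 15 the shares were 16.7%, 18.99% and 14.8%, followed by 46.7% in run 4 (42 of 90, interval 36.1 to 57.5%). Its share was nearly level outside run 4, and the interval of run 4 lay above those of the other runs.

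**Figure D1:**
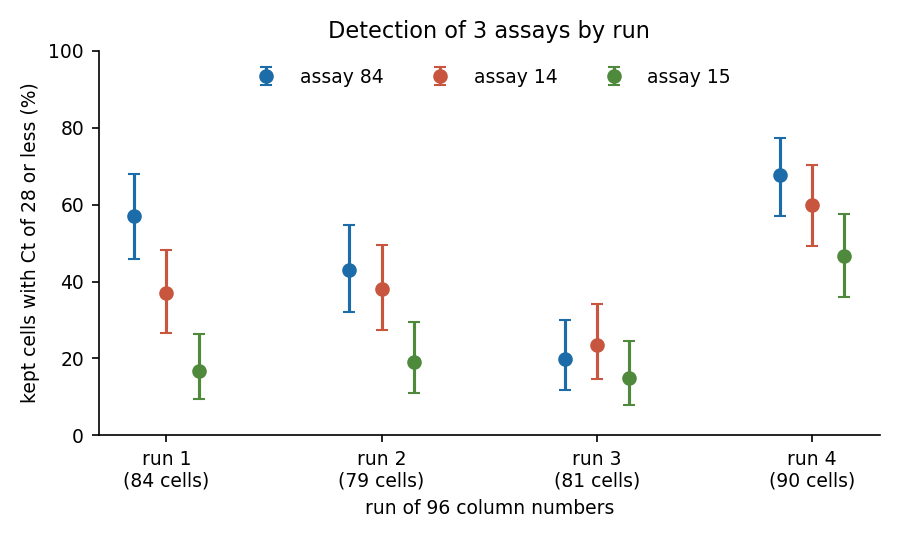
Share of kept cells (vertical axis, %) with assays 84, 14 and 15 at a Ct of 28 or less in each run of 96 column numbers (horizontal axis). Points are shares and bars are exact 95% binomial intervals; assay 15 sits between 14.8% and 18.99% in runs 1 to 3 and at 46.7% in run 4, while assay 84 ranges from 19.8% in run 3 to 67.8% in run 4.

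Against runs 1 to 3 together, run 4 was higher by 27.6 percentage points for assay 84 (interval of the difference 15.6 to 38.2), 27.2 for assay 14 (15.2 to 38.2) and 29.9 for assay 15 (18.6 to 40.9). A difference of at least 20 points in this direction was seen for 11 of 81 assays, or 13.6%, and 28 assays (34.6%) had their highest share in run 4. The 3 assays were chosen by this contrast, so their ranks, margins and intervals are a description. By size of the difference, assay 15 ranked 3, assay 84 ranked 5 and assay 14 ranked 6 of the 81. Assay 15 exceeded its next highest run by 27.7 points, the widest such margin of any assay, whereas assay 84 exceeded run 1 by 10.6 points. The excess of assay 84 rests partly on its low share in run 3, and against runs 1 and 2 alone it was 17.5 points. Weighted over quartile groups of the number of other assays detected, the differences between run 4 and the other runs were 23.1, 26.8 and 29.7 points for assays 84, 14 and 15.

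Where it was detected, assay 84 gave an earlier Ct in run 4. Its Ct ranged from 12.9 to 27.2 with a median of 21.05 in run 1, from 15.6 to 27.7 with a median of 21.5 in run 2, from 17.996 to 23.04 with a median of 20.6 in run 3, and from 12.2 to 26.99 with a median of 18.7 in run 4. The median of run 4 differed from that of the other runs by -2.38 cycles (interval -3.21 to -1.15), so it was earlier. Over the 66 other assays with at least 10 detections on each side, the same difference ranged from -2.40 to 3.07 cycles, with a median of 0.06 and quartiles at -0.68 and 0.81. Of all 69 assays, assay 84 ranked 2 from the earliest, after assay 64.

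For assay 14 the medians were 21.1, 20.03, 20.4 and 19.7 in runs 1 to 4, and run 4 differed from the others by -0.66 cycles (interval -1.65 to 0.56). For assay 15 they were 20.4, 21.5, 21.5 and 21.4, and run 4 differed from the others by -0.06 cycles (interval -0.88 to 1.02). So the greater share of assay 15 in run 4 came at a Ct that was not resolved from that of the other runs.

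**Figure D2:**
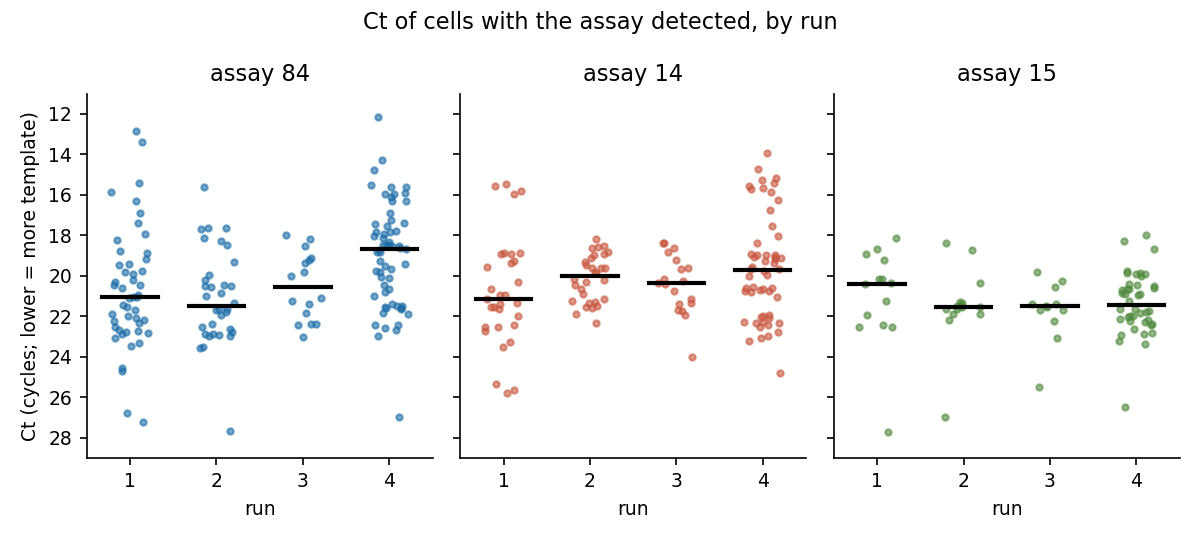
Ct in cycles (vertical axis, reversed so that more template is higher) of every kept cell with the assay detected, by run (horizontal axis), for assays 84, 14 and 15. Black lines are medians; for assay 84 the median of run 4, 18.7, lies above the others, and the 15 early values of assay 14 all lie in runs 1 and 4.

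Cells with all 3 assays were most numerous in run 4, a count that the choice of each assay for its share in run 4 raises by itself. There, 33 of 90 cells had all 3 (36.7%, interval 26.8 to 47.5%). The counts were 7 of 84 in run 1, 5 of 79 in run 2 and 1 of 81 in run 3, or 13 of 244 together (5.33%, interval 2.87 to 8.94%). For scale, the product of the 3 single shares was 18.98% in run 4 and 2.21% over runs 1 to 3, so that both shares of cells with all 3 exceeded the product. Cells with all 3 also had more assays in all, with medians of 43 against 36 in run 4 and 46 against 39 in runs 1 to 3. The part of this number in the excess was not tested. None of the 3 was detected in 16 cells of run 4 (17.8%) and in 97 of the others (39.8%). Detection of assay 15 alone was rare everywhere, in 13 of 334 cells (3.89%), while assay 84 was detected alone in 62 (18.6%).

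**Figure D3:**
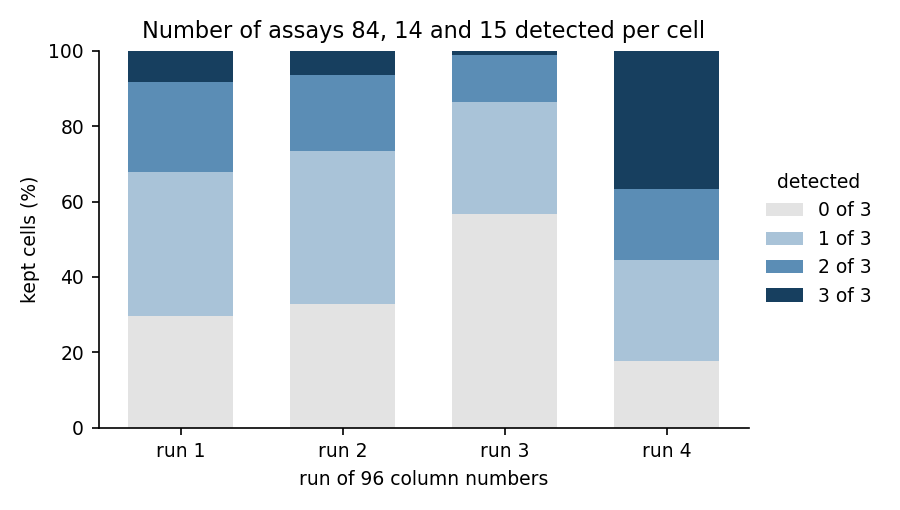
Share of kept cells (vertical axis, %) in which 0, 1, 2 or 3 of assays 84, 14 and 15 were detected, by run (horizontal axis). The darkest segment, all 3 assays, covers 36.7% of run 4 and at most 8.33% of any other run.

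Within a run, shared differences between runs cannot raise the co-detection of a pair. In run 4, 36 of the 54 cells that had assay 14 also had assay 15 (66.7%, interval 52.5 to 78.9%), as did 6 of the 36 that lacked assay 14 (16.7%, interval 6.37 to 32.8%). In runs 1 to 3 the differences for this pair were 14.5, 17.8 and 15.03 points, each with an interval that included 0, against 50 points in run 4 (interval 29.8 to 64.2). Read the other way, as assay 14 given assay 15, the difference in run 2 was 27.2 points with an interval of 0.0439 to 49.8, which excluded 0. Assay 15 likewise accompanied assay 84 in 37 of 61 cells of run 4 (60.7%), against 5 of 29 cells without assay 84 (17.2%). For that pair the differences were 9.72, 7.97 and 4.90 points in runs 1 to 3, with intervals that included 0, and 43.4 in run 4 (interval 22.04 to 58.3). Of the 159 cells that had assay 84, 85 also had assay 14 (53.5%), and of the 175 that lacked it, 49 did (28%). This is a pooled difference of 25.5 points; by run it was 25.7, 5.62, 9.71 and 32.6 in runs 1 to 4, and over runs 1 to 3 together it was 16.8. The size of such a difference is limited by the shares of the assays, which were chosen to be high in run 4. The difference between the runs in these values was not tested.

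Pairs that are detected together are common on this panel. Measured by the phi coefficient, the correlation of 2 detected-or-not calls, all 3 pairs were positive in each of the 4 runs, as were 33.1% of the 3240 pairs of assays. The mean of phi over the runs was 0.27 for assays 14 and 15, 0.18 for assays 84 and 14, and 0.17 for assays 84 and 15, against a median of 0.08 over all pairs. For assays 84 and 15 it was 0.13, 0.10, 0.05 and 0.41 in runs 1 to 4. Over runs 1 to 3 alone the means were 0.20, 0.14 and 0.09 in the same order of pairs, against a median of 0.09. How many assays a cell had in all moved with these values. Cells with assay 14 had a median of 40 other assays against 33 in cells without it, and for assays 84 and 15 the medians were 39 and 40 against 37 each. Weighted within runs and quartile groups of that number, the difference fell to 8.72 points for assay 14 given assay 84, from 19.4 within runs alone. It was 18.4 points for assay 15 given assay 14, from 25.7, and 12.99 for assay 15 given assay 84, from 17.5.

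By sets of other assays in the same cell, assay 84 was distributed differently from assays 14 and 15. Panel assays that were detected in the same cells had been joined into sets on these data: set A of 8 assays, set B of 3 (63, 89 and 90) and set C of 3 (64, 65 and 67). A cell was positive for a set with more than 50% of its assays, which left 222 cells with set A only, 35 with set B only and 41 with set C only. A further 22 cells were positive for none and 14 for more than 1. Neither assay 84, 14 nor 15 belongs to a set. The sets rest on numbered assays and give no cell type.

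Assay 84 was found in nearly all cells with set C only, 38 of 41 (92.7%, interval 80.1 to 98.5%), against 97 of 222 with set A only (43.7%, interval 37.1 to 50.5%). Run by run the counts were 9 of 11, 6 of 7, 6 of 6 and 17 of 17, so that it was frequent there in each run, including run 3 with its low overall share. The difference between these classes was 49.0 points (interval 35.2 to 56.96), and 44.6 within runs. Of the 67 assays outside the sets, 4 (5.97%) were at least 40 points more frequent with set C only than with set A only: assays 92, 19, 84 and 40. Cells with set C only had fewer assays in all, with a median of 33 against 41. For assays 14 and 15 the interval of the same difference included 0. Assay 14 was found in 18 of 41 cells with set C only (43.9%) and 100 of 222 with set A only (45.045%, difference -1.14 points, interval -16.6 to 15.2). Assay 15 was found in 24.4% and 29.7% of them (difference -5.34 points, interval -17.6 to 10.6).

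In cells with set B only all 3 assays were scarce. Assay 84 was detected in 3 of 35 (8.57%, interval 1.80 to 23.1%), assay 14 in 1 (2.86%) and assay 15 in 0, which allows a share of up to 8.57%. These cells had a median of 24 assays detected, and 47.8% of the assays outside the sets were found in under 10% of them, so scarcity there was shared by many assays.

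The shares by run within a class come from the same 334 cells and the same contrast by which the assays were chosen, so they too are a description. Assay 84 was found in 38 of the 62 cells of run 4 that had set A only (61.3%) and in 59 of 160 elsewhere (36.9%, difference 24.4 points). The counts of assay 14 were 42 of 62 (67.7%) and 58 of 160 (36.3%, difference 31.5 points), and those of assay 15 were 33 of 62 (53.2%) and 33 of 160 (20.6%, difference 32.6 points). The median number of assays was 41.5 in these cells of run 4 and 41 in those of the other runs. Of the 81 assays, 13 (16%) were at least 20 points more frequent in run 4 in this class. In cells with set C only, assay 15 was found in 3 of 24 cells of runs 1 to 3 and 7 of 17 of run 4. This is a difference of 28.7 points (interval 1.75 to 52.9). The differences there were 15.4 points for assay 14 and 12.5 points for assay 84. The detections of all 3 assays in run 4 fell on 26 of the 62 cells with set A only, 5 of the 17 with set C only, 2 of the 3 positive for more than 1 set and 0 of the 6 with set B only.

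**Figure D4:**
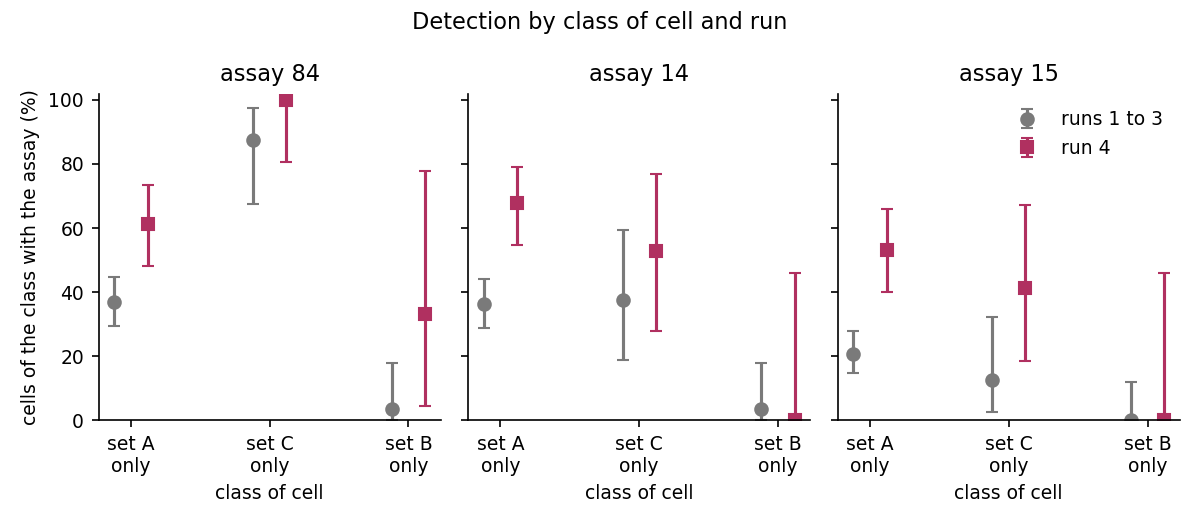
Share of cells (vertical axis, %) with assay 84, 14 or 15 among cells positive for assay set A, C or B only (horizontal axis), in runs 1 to 3 (circles) and run 4 (squares), with exact 95% binomial intervals. Assay 84 is at 87.5% and 100% with set C only, and with set A only the shares of run 4, the contrast that chose the assays, lie above those of runs 1 to 3.

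The assays whose pattern over cells was most like each of the 3 were ranked by the mean of phi within the 4 runs, over 334 cells that form 1 sample and differ in the number of assays detected. For assay 84 they were assays 64 (0.42), 67 (0.41), 5, 19 and 92 (0.36 each). Of the 57 cells that had assay 64, 53 had assay 84 too (92.98%, interval 82.996 to 98.1%), and of the 277 that lacked assay 64, 106 did (38.3%, interval 32.5 to 44.3%). In successive runs 18 of 20, then 9 of 10, 7 of 7 and 19 of 20 cells with assay 64 had it, and without assay 64 the shares were 46.9%, 36.2%, 12.2% and 60%. The difference was 48.6 points within runs and 49.5 within runs and quartile groups of the number of assays. Assays 28 (-0.25) and 90 (-0.24) were least like it, with assay 84 in 27.9% of cells with assay 28 and 57.4% of cells without. Their differences within runs were -25.4 and -35.1 points, and -24.5 and -18.4 within runs and quartile groups of the number of assays.

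For assay 14 the nearest were assays 35 (0.32), 81, 34, 56 (0.30 each) and 59 (0.29). It was present in 64.9% of cells that had assay 35 (74 of 114) and in 27.3% of those that lacked it (60 of 220). It was found in 0 of the 44 cells without assay 34, which allows a share of up to 6.82%, but the median of assays detected was 16.5 in those cells and 41 in the rest. Within runs and quartile groups of the number of assays the differences shrank, to 17.01 points for assay 35, from 33.8, and to 4.11 points for assay 56, from 32.9. Assays 90 (-0.24) and 89 (-0.18) were least like it, but cells with them had medians of 25 and 26 assays, against 41 without. Within runs and quartile groups the differences shrank to -9.65 points for assay 90, from -37.6, and to -4.64 for assay 89, from -26.5.

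For assay 15 the nearest were assays 70 (0.31), 12 (0.30), 11 (0.29), 81 and 54 (0.28 each). It was present in 56.4% of cells that had assay 11 (44 of 78, interval 44.7 to 67.6%) and in 15.2% of those that lacked it (39 of 256, interval 11.1 to 20.2%). This difference was 37.9 points within runs and 32.3 within runs and quartile groups of the number of assays. The differences for the other nearest assays shrank more. They fell to 14.1 points for assay 70, from 26.03, and to 17.3 for assay 12, from 25.1. For assay 81 the fall was to 10.5 points, from 23.5, and for assay 54 to 18.7, from 27.2. Phi with assay 11 was 0.35, 0.40, -0.07 and 0.49 in runs 1 to 4, so that the likeness was not seen in run 3. Assays 74 (-0.20) and 90 (-0.19) were least like assay 15, which was found in 0 of 37 cells with assay 90, allowing up to 8.11%.

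Some cells had early Ct values for both assays 84 and 14. Early was taken as at least 3 cycles before the assay's median, a limit chosen after the values were seen. By it 24 of 159 cells were early for assay 84, 15 of 134 for assay 14 and 4 of 83 for assay 15. Of the 15 cells early for assay 14, 14 were early for assay 84 too, and in the remaining cell assay 84 had a Ct of 18.5. The next Ct after the early cells was 17.6 for assay 14 and 17.5 for assay 84, and the limit is a point on a range of values that marks no separate class. In the 14 cells assay 14 had Ct values from 13.9 to 16.8 with a median of 15.6, against a median of 20.8 in the other cells of runs 1 and 4 that had it. Assay 84 had values from 12.9 to 17.4 with a median of 15.9, against 20.4.

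These 14 cells lay in run 4 (10 of 90 cells, 11.1%, interval 5.46 to 19.5%) and run 1 (4 of 84, 4.76%, interval 1.31 to 11.7%), with 0 of 160 cells in runs 2 and 3, which allows up to 1.88%. The group was defined by assays 84 and 14, so their values in it are a description. Assay 15 was not used to define it, but was itself chosen for its share in run 4, where 10 of the 14 cells lay. It was detected in 13 of the 14 cells (92.9%, interval 66.1 to 99.8%), against 43 of the 160 other cells of runs 1 and 4 (26.9%, interval 20.2 to 34.4%). By run, it was in 4 of 4 cells of run 1, against 12.5% of the other cells of that run. In run 4 it was in 9 of 10, against 41.3%. Of the 160 other cells, 52 had both assays 84 and 14, as the 14 cells do by definition, and 27 of them had assay 15 (51.9%, interval 37.6 to 65.99%). The median Ct of assay 15 was 20.5 in the 14 cells and 21.6 in the 160 others. Assay 11 was detected in 14 of 14 against 24.4% and assay 19 in 14 of 14 against 42.5%. Assay 40 was detected in 13 of 14 against 26.3%. Assay 7 was detected in 0 of 14, which allows up to 21.4%, against 36.9%, and assay 78 in 4 against 73.8%. Among the 52 cells with both assays, the shares were 44.2% for assay 11, 73.1% for assay 19, 53.8% for assay 40, 25% for assay 7 and 63.5% for assay 78. Of the 79 assays that did not define the group, 10 (12.7%) were at least 40 points more frequent in it. By set, 11 of the 14 cells were positive for set A only, 2 for more than 1 set and 1 for none.

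The 14 cells also differed in assays other than these. Their median number of assays was 43.5, and that of the other cells of runs 1 and 4 was 39. Their assays other than 84, 14 and 15 had a median Ct of 18.7 against 20.3, a difference of -1.60 cycles. Of the 38 assays other than 84 and 14 detected in at least 10 of the cells, 33 had an earlier median Ct than in the other cells. The median shift was -1.06 cycles, and 5 assays were earlier by at least 3 cycles: assays 13 (-4.59), 18 (-4.50), 11 (-4.38), 12 (-3.73) and 61 (-3.70). The part of the general amount of template in the early values of assays 84 and 14 was not tested.

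The contrast of run 4 with the other runs, which chose the assays, is given without these 14 cells as a description. Assay 84 was then detected in 51 of 80 cells of run 4 (63.8%) and 94 of 240 of the other runs (39.2%), a difference of 24.6 points. For assay 14 it was 55.0% and 31.7% (23.3 points), and for assay 15 41.3% and 15.4% (25.8 points). The median Ct of assay 84 in run 4 became 19.4, against 21.2 in the other runs.

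**Figure D5:**
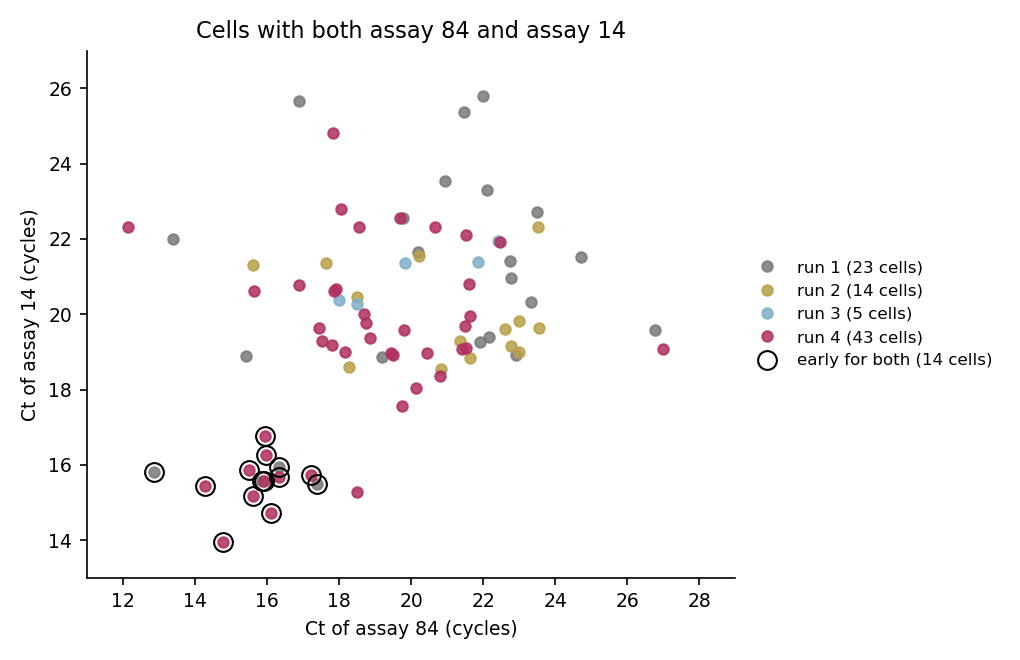
Ct of assay 14 (vertical axis, cycles) against Ct of assay 84 (horizontal axis, cycles) in the 85 kept cells with both, coloured by run; lower values mean more template. The 14 circled cells, early for both, sit at the lower left and belong to runs 1 and 4.

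The Ct values of assays 84 and 14 had a Spearman rank correlation of 0.34 over the 85 cells with both. It was 0.28 in the 23 cells of run 1, -0.05 in the 14 cells of run 2 and 0.36 in the 43 cells of run 4. No cell of run 2 was early for both, and the part of the early cells in these values was not tested. For assays 14 and 15 it was 0.22 over 58 cells, and for assays 84 and 15 it was 0.12 over 58 cells. These are descriptions across cells that share a sample and differ in template, with no test.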

How the data were processed

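Cells were lysed in single wells, and their pre-amplified cDNA was measured with TaqMan assays on microfluidic chips, per the labels' protocols. The values that the authors deposited are threshold cycles, a score with no fixed range that falls with more template, and 999 marks a reaction without one. How the instrument set its threshold, and whether reactions were filtered, is not given in the sources used here. No normalization was applied.

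The 3 assays, the runs, the sets A, B and C and the lists were chosen with earlier results of these data known. Comparisons between zones were planned for columns that a name pairs with a sample, and none could be run. For each of the 3 assays, the rule for named assays took the 5 others with the highest and the 2 with the lowest mean phi within runs. Assay 1, without a Ct in run 4, was averaged over the other runs. Other assays named were chosen after their values were seen. Planned lists of cell type markers could not be used, as assays have no gene names.

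Intervals of differences combine Wilson intervals of the shares, or order-statistic intervals of the medians. Differences within strata were weighted by the Mantel-Haenszel method, over runs or over runs and quartile groups of the number of assays detected other than the 3. The calculations were tested on simulated data. Python 3.11.15, numpy 2.4.6, pandas 2.3.3, scipy 1.17.1 and matplotlib 3.10.9 were used. As alternatives, the limit was set at Ct 24, at Ct 26 or at none, the minimum at 0 or 20 assays per cell, Ct was centred on each cell, and each run was left out. Precision is set by 79 to 90 kept cells per run.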

Additional observations from a re-analysis of the deposited data

Results flagged for a closer look

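Assay 14 gave a Ct above 28, outside the detection limit, in 4 kept cells (1.20%, interval 0.327 to 3.04%). The count was flagged for exceeding the 3 counts taken as the limit of a count of 0, which does not show it to be signal. The Ct values of these reactions lay between 31.7 and 38.2. Assay 84 had 3 such reactions in kept cells and assay 15 had 2, with intervals that overlapped that of assay 14.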

How the results depend on the processing

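Of 135 values recomputed under an alternative, 127 stayed inside the 95% interval of the reported value and 8 moved outside it. The alternatives drew on the same cells, so they are not independent repeats. Leaving out run 4, on which the choice rested, moved the shares of all 3 assays and the median Ct of assay 84. It also moved the co-detection of assay 15 with assay 84 and with assay 14. Leaving out run 3 moved the share of assay 84, to 56.5%. No difference whose interval excluded 0 changed sign. With Ct centred on each cell, the median Ct of assay 15 became 21.83 in place of 21.50. Leaving out each run in turn gave shares from 40.2 to 56.5% for assay 84, from 32.8 to 45.5% for assay 14 and from 16.8 to 28.1% for assay 15, and median Ct values from 19.84 to 21.06 for assay 84. The pooled co-detection of a pair, as the difference in share of the second assay between cells with and without the first, ranged from 7.73 to 28.1 points for assays 84 and 15, from 15.9 to 35.6 for assays 14 and 15 and from 16.8 to 31.4 for assays 84 and 14. The lowest value of each came without run 4, where the interval for assays 84 and 15 included 0 (-1.81 to 17.97). The excess of run 4 ranged from 17.5 to 36.5 points for assay 84 when run 1, 2 or 3 was left out. The 5 assays most like assay 84 by phi within runs shared 3 with the 5 by phi over all cells. No paired analysis was possible because the columns carry no replicate numbers. Planned zone comparisons within ranges of title numbers were not run for the same reason. A minimum of 20 assays for Ct, the weighting within runs and quartile groups, the mean of phi without run 4 and the comparison with cells that have both assays 84 and 14 were chosen after seeing the data.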
